A study of Mus musculus with 14 samples.

Results

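The serpins described here are the 10 mouse genes Serpina1a, Serpina1b, Serpina1c, Serpina1d, Serpina1e, Serpina3f, Serpina3g, Serpina3k, Serpina3m and Serpina3n. They were chosen by gene symbol from the 55357 gene rows of the count tables, which hold 29 symbols that begin with Serpina. Liver RNA was sequenced from 8 model livers and 6 control livers of male C57BL/6 mice aged 5 to 6 weeks, given 1 week of acclimatisation. The model mice received lipopolysaccharide (LPS, a component of the bacterial cell wall) at 10 µg/kg and D-galactosamine (D-GalN, which poisons hepatocytes) at 300 mg/kg, both into the peritoneum. The control mice received normal saline, and all livers were taken 24 h after injection. The labels call the model acute liver failure, it involves no genetic change, and whether each library is a separate animal is not stated in them.

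Serpins are protease inhibitors that work as a bait. An exposed stretch, the reactive centre loop, is cut by the protease, the inhibitor then folds around the cut and the enzyme is trapped in a covalent complex. Serpina1 encodes alpha-1-antitrypsin, a hepatocyte-made plasma inhibitor whose best known target in humans is neutrophil elastase. Humans have a single working gene, whereas C57BL/6 mice carry tandem copies that differ in the loop. The Serpina3 genes are the mouse relatives of human alpha-1-antichymotrypsin, an acute-phase protein of the liver, and they also multiplied in tandem in rodents.

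All 10 genes lie on chromosome 12 in 2 runs, by the GENCODE annotation of GRCm38. Serpina1b, Serpina1d, Serpina1a, Serpina1c and Serpina1e follow each other on the minus strand, and Serpina3f, Serpina3g, Serpina3k, Serpina3m and Serpina3n follow on the plus strand. The coding sequences of the 5 Serpina1 genes shared 96.3% to 98.5% of aligned bases with each other. The stretch that encodes the reactive centre loop is shown because the loop is known to decide which protease is bound. It lies in the 60-base window with the most varying positions, which held 18 of the 155 positions that varied in the 1308 columns of the alignment. Capitals mark the positions at which the 5 copies are not all the same, and the windows read 5′ to 3′ on the minus strand of GRCm38.
Serpina1a, chr12:103853757-103853816: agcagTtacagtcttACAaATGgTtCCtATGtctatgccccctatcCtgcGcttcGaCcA
Serpina1b, chr12:103728324-103728383: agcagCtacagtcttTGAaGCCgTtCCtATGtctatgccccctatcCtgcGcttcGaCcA
Serpina1c, chr12:103895094-103895153: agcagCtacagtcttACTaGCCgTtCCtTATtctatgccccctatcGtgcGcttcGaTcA
Serpina1d, chr12:103763762-103763821: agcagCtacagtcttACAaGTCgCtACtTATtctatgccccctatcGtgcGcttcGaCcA
Serpina1e, chr12:103947100-103947159: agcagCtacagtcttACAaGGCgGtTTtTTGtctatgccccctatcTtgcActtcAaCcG

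The copies differ in how well reads can tell them apart. Of the 100-base stretches of each gene's transcripts, 30.7% for Serpina1c and 57.2% for Serpina1a occur in no other gene. The share was 70.7% for Serpina1d, 85.2% for Serpina1b and 85.6% for Serpina1e. The Serpina3 genes are easier to separate, with 93.9% for Serpina3m to 99.8% for Serpina3n. Serpina3k and Serpina3m share 91.7% of 1248 aligned coding bases, and Serpina3f and Serpina3g share 87.0% of 744. Values of single Serpina1 copies, those of Serpina1c and Serpina1a most of all, are therefore uncertain, and their sum is given beside them. Sums are also given for the less alike pairs Serpina3f with Serpina3g and Serpina3k with Serpina3m. A sum does not bring back reads that the counter left out for matching several places. Serpina1b also overlaps Serpina1d, Gm17042, Gm17043 and Gm8893, Serpina1c overlaps B430119L08Rik, and Serpina3k and Serpina3m overlap each other, and Serpina3m also overlaps Serpina3l-ps.

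**Figure D1:**
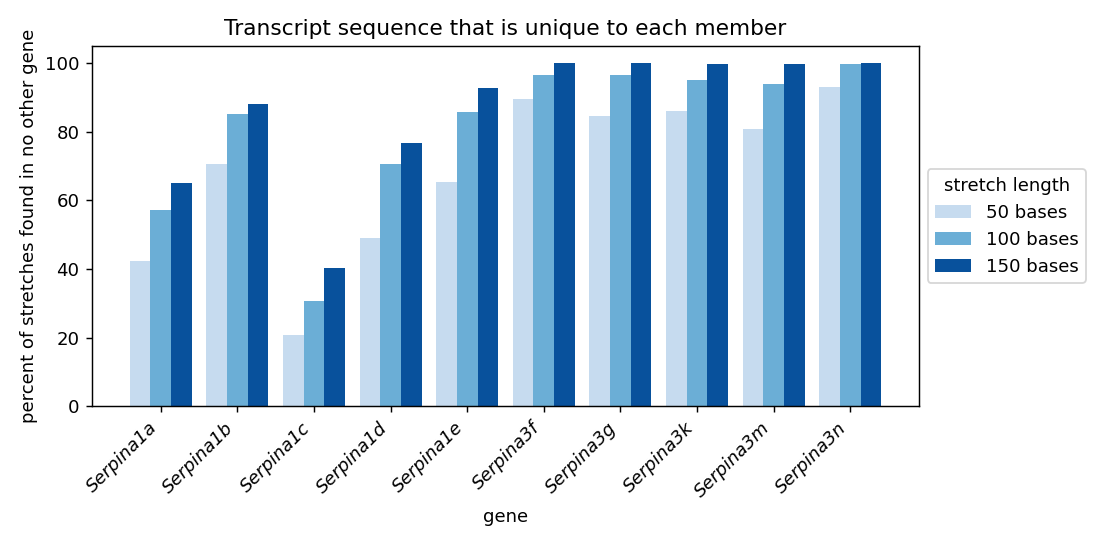
Percent (y axis) of all 50-, 100- and 150-base stretches of each gene's annotated transcripts that occur in no other gene (3 bars a gene). Serpina1c has the lowest bars, with 30.7% at 100 bases, and each Serpina3 gene is above 90% at 100 bases, from 93.9% for Serpina3m.

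The promoters of 3 Serpina3 genes are shown because these genes had large changes and because Stat3, whose protein carries the interleukin-6 signal to acute-phase genes, was among the regulators measured. RefSeq promoters (GRCm38.p6) were supplied for 8 of the 10 genes, and those of Serpina3k and Serpina3m were not used here. The 250 bases before the start are printed on the plus strand. Capitals mark the 9 bases of the match to TTCNNNGAA, a STAT-type motif, in Serpina3f and Serpina3g, and the 9 bases aligned with it in Serpina3n, which differ from the motif.
Serpina3f, chr12:104214294-104214543: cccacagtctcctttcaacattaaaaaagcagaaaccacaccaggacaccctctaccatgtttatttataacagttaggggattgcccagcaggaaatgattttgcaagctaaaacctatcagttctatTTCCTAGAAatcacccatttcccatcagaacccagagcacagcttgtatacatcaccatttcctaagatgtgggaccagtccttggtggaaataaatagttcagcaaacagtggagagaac
Serpina3g, chr12:104235897-104236146: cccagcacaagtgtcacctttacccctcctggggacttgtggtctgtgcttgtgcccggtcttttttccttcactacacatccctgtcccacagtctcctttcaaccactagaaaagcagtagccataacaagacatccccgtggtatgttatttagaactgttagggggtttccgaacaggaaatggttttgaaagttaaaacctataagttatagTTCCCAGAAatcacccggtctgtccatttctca
Serpina3n, chr12:104406458-104406707: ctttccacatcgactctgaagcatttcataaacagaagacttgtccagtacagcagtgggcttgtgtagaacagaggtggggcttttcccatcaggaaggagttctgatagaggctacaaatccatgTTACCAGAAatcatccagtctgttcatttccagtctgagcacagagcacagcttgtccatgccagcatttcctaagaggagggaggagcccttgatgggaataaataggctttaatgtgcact

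Over their aligned bases the promoters of Serpina3f and Serpina3g were 76.5% identical, and that of Serpina3n was 63.5% identical to Serpina3f and 63.9% to Serpina3g. TTCNNNGAA, read on both strands, occurred once each in Serpina3f and Serpina3g and in none of the other 6 promoters supplied, and 7.02% of the 32851 promoters in the table hold it. TTNNGCAA, a C/EBP-type motif, occurred 2 times in Serpina3f, 1 time each in Serpina1b, Serpina1d and Serpina1e, and in 9.56% of all promoters. No match of 1 motif overlapped a match of another. These matches describe letters and are not measured binding.

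The libraries held 10329469 to 16639972 gene counts in model and 7914120 to 14463540 in control. Levels are given as CPM, read counts scaled to library size. Those of the members and other single tested genes also use TMM factors. Summed marker levels use library totals alone and are not on the same scale. Reads aligned to several places, which were not given to any gene, made up 13.9% to 18.3% of all entries in model libraries and 13.4% to 18.6% in control libraries. Hepatocyte markers were high in all livers, with a summed level of 61665 to 86032 CPM in model and 50086 to 88344 in control. Summed neutrophil markers reached 1184 to 2300.1 CPM in model, against 4.72 to 15.6 in control, where Ly6g had no count. Summed monocyte and macrophage markers were at 333 to 569 CPM in model and 160 to 318 in control. On the second principal component of log2 CPM (14.2% of the variance), model 7 (-61.2) and model 8 (-45.4) lay farthest from the other model libraries. Control 6 (-64.4) and control 3 (-39.8) lay at the same end. Reads that were not aligned made up 3.29% (model 2) to 7.80% (model 3) of entries in model libraries. In control libraries they made up 3.42% (control 6) to 11.6% (control 1). They were at 3.37% in model 7 and 4.74% in model 8, and their part in the differences between libraries was not tested. Test results of members that rest on model 7 and model 8 are given without them too. Of the other genes, only Ttr is also given without them. Tnf (78.2 and 91.0 CPM in model 7 and model 8), Hspa5 and Syvn1, among others, were also highest in these libraries.

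Of the 10 members, 7 rose in model livers, none fell and 3 did not pass the test, which was edgeR's quasi-likelihood test at a Benjamini-Hochberg adjusted p under 0.05. DESeq2 and limma-voom also called none lower, and since all 10 fold changes were positive none was lower at an unadjusted p under 0.05 either. Of the 12915 genes tested, 26.6% rose, 21.3% fell and 47.9% changed in either direction. All 5 Serpina3 genes rose, and of the Serpina1 copies Serpina1b and Serpina1d rose. At least 2-fold rises were seen in 4 members, all of them Serpina3 genes (20.3% of all genes). The 8 model and 6 control values did not overlap for Serpina1b, Serpina1d, Serpina3f and Serpina3g, against 14.6% of all genes with the model libraries higher and 23.2% in either direction. These values use TMM factors. When counts were divided by library totals instead, the ranges of Serpina1b and Serpina1d overlapped. The median log2 fold change (model over control) was 0.78 over the 10 members and 0.0099 over all genes tested. All 10 log2 fold changes were above 0, but Serpina1e was at -0.027 when library totals replaced TMM factors. In whole-liver RNA, more RNA per cell and more cells of a type cannot be told apart.

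**Figure D2:**
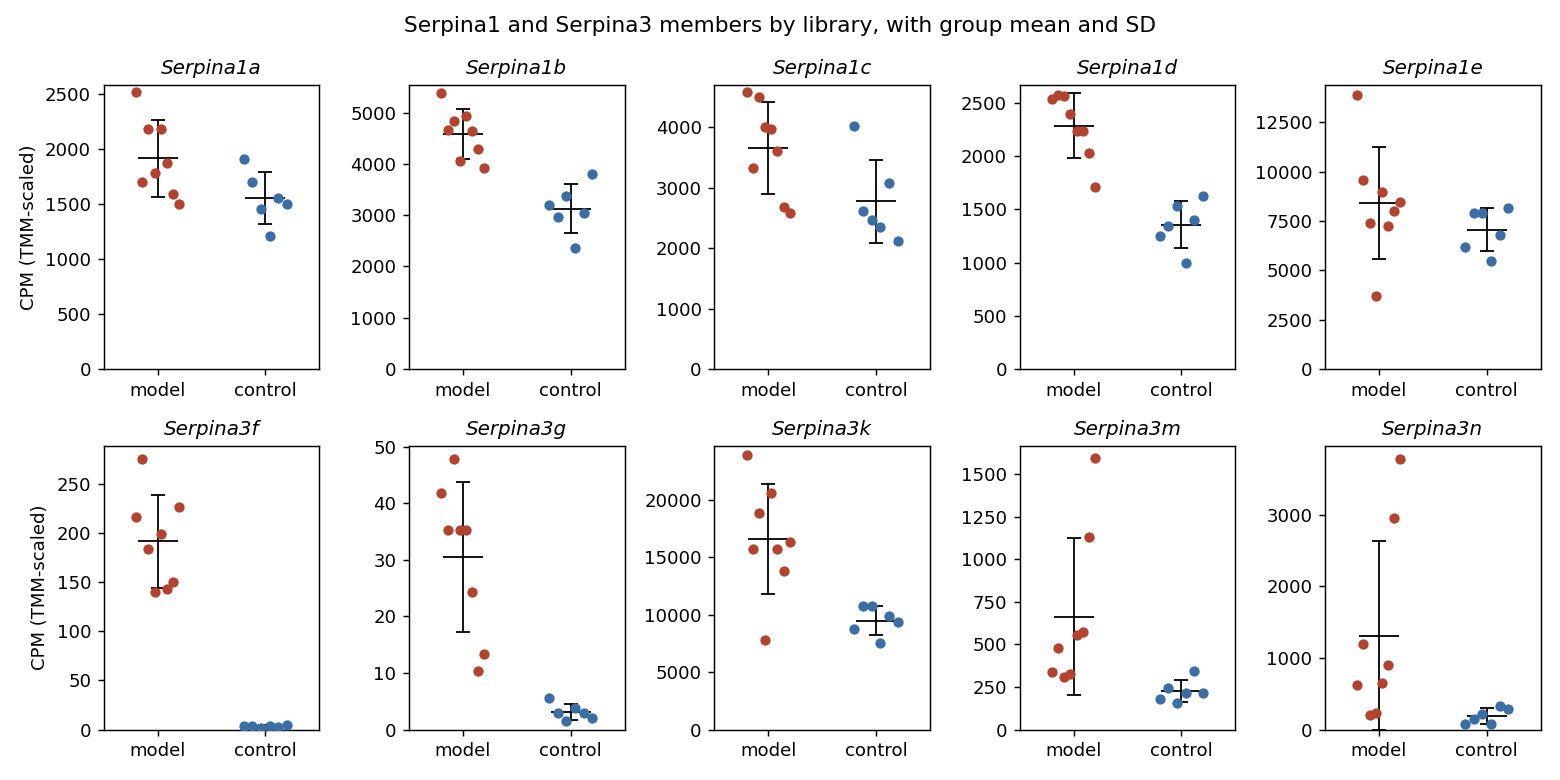
Level of each member in CPM scaled with TMM factors (y axis, from 0, own scale in each panel) in 8 model libraries (left) and 6 control libraries (right); bars are the mean and SD, and the lower SD bar of Serpina3n in model is cut at 0. Model and control points are fully separated for Serpina1b, Serpina1d, Serpina3f and Serpina3g, and model 7 and model 8 are the 2 highest points of Serpina3n and Serpina3m.

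Serpina1b and Serpina1d, copies of the alpha-1-antitrypsin gene, rose moderately and evenly across the model livers. Serpina1d was at 1708 CPM in the lowest, a median of 2319 and 2578 in the highest model library, against 994, 1370.3 and 1623 CPM in control. With TMM factors, every model library was above every control library. Its mean was 2287 ± 303 CPM in model livers (SD, n = 8) and 1356 ± 221 in control livers (SD, n = 6), a log2 fold change of 0.75 ± 0.17 (SE) with an adjusted p of 0.00157 by edgeR's quasi-likelihood test. Serpina1b ranged from 3922 over a median of 4647 to 5387 CPM in model and from 2353 over 3124 to 3806 CPM in control. The ranges were again apart with TMM factors, though the lowest model library was close to the highest control. Serpina1b averaged 4589 ± 487 CPM in model and 3125 ± 481 in control, and the log2 fold change was 0.55 ± 0.16 (SE, adjusted p = 0.00999 by edgeR). That call did not hold with upper-quartile factors, library totals or a length and GC offset, under which the log2 fold change was 0.40, 0.28 and 0.35 and the adjusted p 0.065, 0.168 and 0.0739.

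Serpina1a, Serpina1c and Serpina1e did not pass the test. In simulated counts that test recovered 6% of 1.5-fold changes, in genes drawn from all those tested. By mean level Serpina1a, Serpina1c and Serpina1e ranked 64, 41 and 16 of 12915 tested genes in model. That share therefore does not tell how often a change in these 3 copies would be missed. A small rise in them remains possible. Serpina1e, the copy with the most counts, ran from 3712 over a median of 8251 to 13881 CPM in model and from 5447 over 7336 to 8157 CPM in control. It had the widest spread of the 5 copies in model, with model 4 below every control and model 1 far above. Its log2 fold change was 0.25 ± 0.23 (SE, adjusted p = 0.390 by edgeR's test). Serpina1a averaged 1913 ± 348 CPM in model livers (SD, n = 8) and 1553 ± 235 in control livers (SD, n = 6), with a log2 fold change of 0.30 ± 0.18 (SE) and an edgeR adjusted p of 0.170. Serpina1c averaged 3661 ± 759 CPM in model and 2777 ± 691 in control, with a log2 fold change of 0.40 ± 0.20 (SE) and an edgeR adjusted p of 0.112. Of the 8 model libraries, 3 lay above every control for Serpina1a, 2 for Serpina1c and 4 for Serpina1e. Without model 7 and model 8, Serpina1a (0.43, adjusted p = 0.0365) and Serpina1c (0.57, adjusted p = 0.0152) passed edgeR's test, and so did Serpina1c without control 1 (0.53, adjusted p = 0.0399).

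Taken as 1 gene, Serpina1a to Serpina1e summed to 15947 to 28895 CPM in model with a median of 20544, and to 12345 to 17206 CPM in control with a median of 16521. The sum was above every control in 7 of the 8 model libraries, model 4 being the exception. Its mean was 20862 ± 3890 CPM in model livers (SD, n = 8) and 15862 ± 1777 in control livers (SD, n = 6). The log2 fold change of the sum was 0.40 ± 0.18 (SE) and did not pass edgeR's test (adjusted p = 0.0732), whereas it passed with DESeq2 (0.36, adjusted p = 0.0365) and without model 7 and model 8 (0.48, adjusted p = 0.0278). As a share of all gene counts, which is scaling by library totals, the 5 copies held 1.93% ± 0.247 in model and 1.77% ± 0.369 in control. The log2 of that share differed by 0.14, which did not pass a two-sided exact permutation test (p = 0.320, also after adjustment over the 3 comparisons of this kind). With library totals the median log2 fold change of all genes tested was -0.23, against 0.0099 with TMM factors.

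The make-up of the Serpina1 sum varied from liver to liver in both groups. Serpina1e held 39.6% ± 8.04 of it in model livers (SD, n = 8) and 44.4% ± 4.06 in control livers (SD, n = 6), with the lowest share, 23.3%, in model 4. Serpina1d held 11.2% ± 1.93 in model and 8.52% ± 0.721 in control, and Serpina1b 22.3% ± 1.96 in model and 19.6% ± 1.40 in control. Serpina1c held 17.8% ± 3.77 in model and 17.6% ± 4.24 in control, and Serpina1a 9.23% ± 1.13 in model and 9.79% ± 1.05 in control. The ranges of the 2 groups overlapped for each of the 5 copies. These shares were not tested, since they depend on how reads shared between copies were counted.

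**Figure D3:**
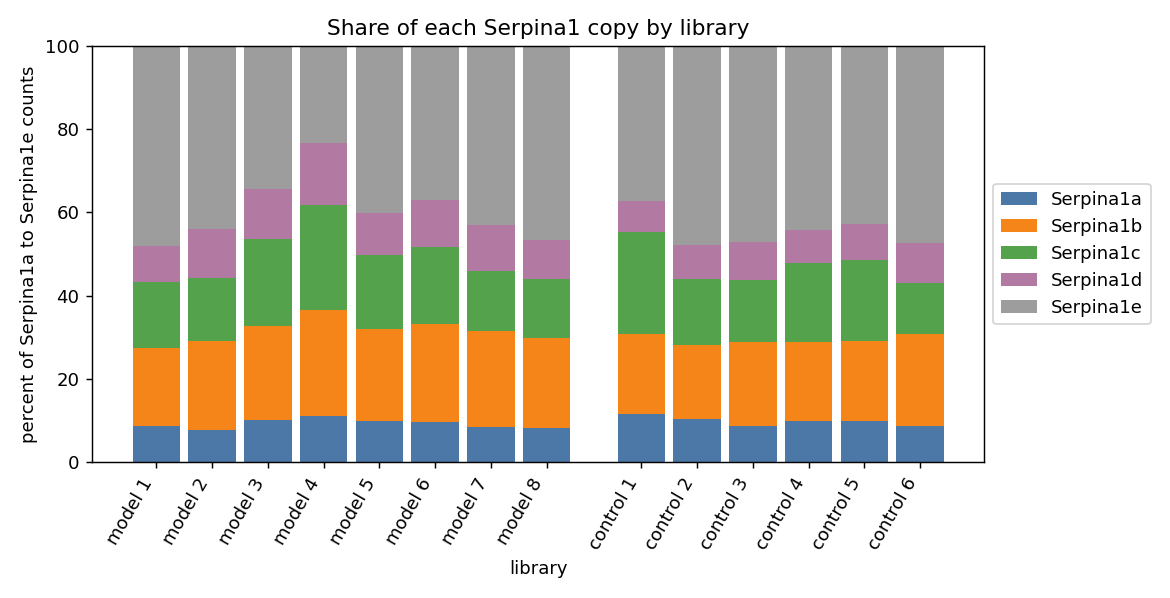
Percent of the summed Serpina1a to Serpina1e counts (y axis) held by each copy in each library, model libraries on the left and control libraries on the right. Serpina1e takes the largest block in every library except model 4, where it is at 23.3%.

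Serpina3f and Serpina3g had the largest fold changes of the 10 genes. Serpina3g, also known as Spi2A, is an intracellular inhibitor of lysosomal cathepsins that is known to be induced by interferon gamma and NF-kB in mouse leukocytes. Serpina3f, its close neighbour, was at 139 CPM in the lowest, a median of 191 and 275 in the highest model library, against 2.01, 3.82 and 4.32 CPM in control. The groups were far apart and the model libraries varied by less than 2-fold among themselves (highest over lowest, 1.97). The mean of Serpina3f was 191 ± 47.4 CPM in model livers (SD, n = 8) and 3.48 ± 0.896 in control livers (SD, n = 6), a log2 fold change of 5.78 ± 0.27 (SE, adjusted p = 5.29e-11 by edgeR's quasi-likelihood test). By mean level it ranked 678 of 12915 tested genes in model and 9316 in control.

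Serpina3g was at 41.8, 35.3, 47.9, 35.3, 35.4, 24.4, 10.4 and 13.4 CPM in model 1 to model 8, and at 5.52, 2.86, 1.54, 3.85, 2.88 and 2.08 CPM in control 1 to control 6. All model values were above all control values, and the lowest 2 were those of model 7 and model 8. Its mean was 30.5 ± 13.3 CPM in model and 3.12 ± 1.41 in control, with a log2 fold change of 3.31 ± 0.39 (SE) and an adjusted p of 1.83e-06 by edgeR. Together the pair summed to 222 ± 51.7 CPM in model and 6.60 ± 1.96 in control (log2 fold change 5.08 ± 0.27, adjusted p = 1.44e-10 by edgeR).

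The pair did not change equally. Serpina3f held 86.2% ± 5.65 of the pair's counts in model livers (SD, n = 8) and 53.9% ± 9.16 in control livers (SD, n = 6), with ranges that did not overlap. The log2 ratio of Serpina3g to Serpina3f counts was -2.77 ± 0.80 in model and -0.23 ± 0.54 in control, a difference of -2.54. A two-sided exact permutation test over all ways to divide 14 libraries into 8 and 6 gave p = 0.000333, the smallest value possible, and 0.000999 after adjustment over 3 comparisons. All 8 model libraries had a lower ratio than all 6 controls. Summed neutrophil markers (1184 to 2300.1 CPM in model, 4.72 to 15.6 in control) and macrophage markers were also higher in model, and their part in these results was not tested.

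Serpina3n, a mouse counterpart of human antichymotrypsin and an inhibitor of granzyme B and neutrophil proteases, rose in model livers but to very different degrees. It was at 619, 1190, 199, 228, 646, 900.4, 2953 and 3774 CPM in model 1 to model 8, and at 72.5, 142, 215, 77.9, 332 and 295 CPM in control 1 to control 6. Model 7 and model 8 were far above the rest, model 3 and model 4 lay within the control range, and 6 of the 8 model libraries were above every control. The highest model library was 19.0 times the lowest, against 4.58 times in control. The mean was 1314 ± 1324 CPM in model livers (SD, n = 8) and 189 ± 110 in control livers (SD, n = 6), with a log2 fold change of 2.80 ± 0.65 (SE, adjusted p = 0.00184 by edgeR's test). Without model 7 and model 8 the log2 fold change was 1.77 (adjusted p = 0.00750 by edgeR), and the model mean was 630.2 ± 383 CPM (SD, n = 6).

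Serpina3m had the same 2 libraries at its top. It was at 337, 479, 309, 327, 555, 571, 1128 and 1594 CPM in model 1 to model 8, and at 181, 243, 157, 215, 344 and 217 CPM in control 1 to control 6. The groups overlapped through control 5, and 5 of the 8 model libraries were above every control. Its log2 fold change was 1.55 ± 0.37 (SE, adjusted p = 0.00235 by edgeR), and 0.97 without model 7 and model 8 (adjusted p = 0.00263 by edgeR). The part in these values of whatever set model 7 and model 8 apart was not tested.

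Serpina3k, known as contrapsin or kallikrein-binding protein, was the most abundant member. It ranged from 7814 over a median of 16026 to 23903 CPM in model and from 7525 over 9605 to 10790.3 CPM in control. Every model library except model 4 lay above every control. The mean was 16599 ± 4794 CPM in model livers (SD, n = 8) and 9502 ± 1246 in control livers (SD, n = 6), with a log2 fold change of 0.80 ± 0.22 (SE, adjusted p = 0.00600 by edgeR). With library totals it was 0.52 (adjusted p = 0.0345). By mean level Serpina3k ranked 6 of 12915 tested genes in model and 13 in control. With Serpina3m the sum was 17266 ± 4759 CPM in model and 9725 ± 1251 in control (log2 fold change 0.83 ± 0.22, adjusted p = 0.00461 by edgeR). Serpina3m made up 4.07% ± 2.73 of that sum in model and 2.35% ± 0.663 in control, with 7.53% in model 7 and 8.90% in model 8.

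The log2 ratio of Serpina3n to Serpina3k was -4.27 ± 1.54 in model and -5.88 ± 0.84 in control. The difference of 1.61 had p = 0.0436 in a two-sided exact permutation test and 0.0654 after adjustment over the 3 ratios and shares tested, which does not pass. It passed without model 3 (1.94, adjusted p = 0.0175) and without model 3 and model 4 together (2.14, adjusted p = 0.0195), and was 0.91 without model 7 and model 8 (adjusted p = 0.188). The values overlapped between the groups, and 4 of the 8 model libraries were above every control.

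**Figure D4:**
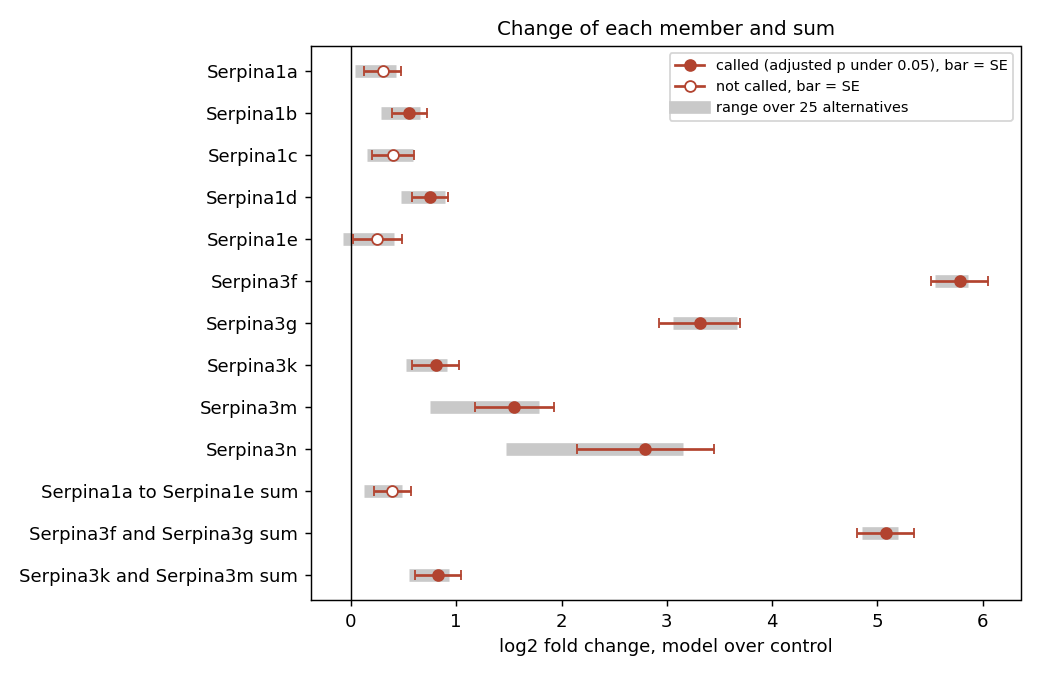
Log2 fold change, model over control (x axis), of each member and each sum (y axis), with its SE as a bar; filled points passed the test at an adjusted p under 0.05, and grey bands span the values under 25 alternative settings. Serpina3f, Serpina3g and Serpina3n lie farthest from 0 at 5.78, 3.31 and 2.80, and the band of Serpina1e crosses 0.

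Levels of different genes were compared per kilobase of exon. In CPM per kilobase of exon, Serpina3k had the highest level with 8070 ± 2330.4 in model livers (SD, n = 8) and 4619 ± 606 in control livers (SD, n = 6). Serpina1e followed with 5200 ± 1753 in model and 4364 ± 682 in control. Serpina1c, Serpina1b, Serpina1d and Serpina1a came next in both groups, at 2690.1, 1900.3, 1641 and 1044 in model and at 2040.3, 1294, 973 and 848 in control. Per kilobase of the longest transcript, Serpina1a was above Serpina1d in control (982 and 973). These levels are not corrected for unique sequence, which runs from 30.7% of 100-base stretches for Serpina1c to 85.6% for Serpina1e. The order of the Serpina1 copies is therefore uncertain. The bands of mean ± SD overlapped between Serpina3k and Serpina1e and between Serpina1b and Serpina1d in both groups, and between Serpina1d and Serpina1a in control, and were apart for the other neighbours among these 6 genes. Serpina3n was at 636 ± 642 in model and 91.6 ± 53.2 in control, and Serpina3m at 385 ± 268 in model and 131 ± 37.9 in control. The order of these 2 genes differed between the groups, their bands overlapped in both, and that of Serpina3n also overlapped Serpina1a in model. Serpina3f and Serpina3g were lowest, at 83.6 ± 20.7 and 14.5 ± 6.30 in model and at 1.52 ± 0.391 and 1.48 ± 0.672 in control, where they did not differ beyond their spread. All 10 members together held 3.67% ± 0.616 of all gene counts in model and 2.88% ± 0.606 in control.

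**Figure D5:**
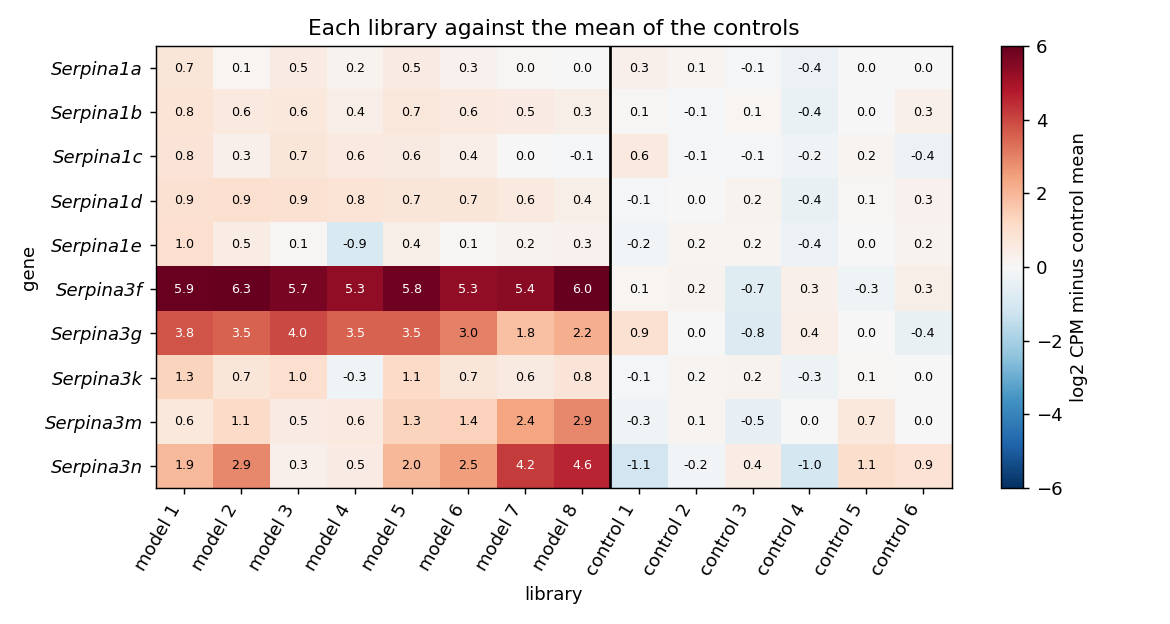
Log2 CPM of each member (rows) in each library (columns) minus the mean log2 CPM of the controls, with the value printed in each cell and model libraries to the left of the line. Serpina3f is high in every model library, whereas Serpina3n goes from near 0 in model 3 and model 4 to above 4 in model 7 and model 8, where Serpina3g is lowest among model libraries.

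The members followed different patterns from liver to liver within the groups. Likeness was measured as Pearson's r between deviations of log2 CPM from the group mean over the 14 libraries, as a description, since all genes of a library share its depth and its scaling factor. Serpina3n and Serpina3m went together (r = 0.84), Serpina3n and Serpina3g went opposite ways (r = -0.83), and Serpina3k went with Serpina1e (r = 0.90). Among model libraries, model 7 and model 8 were highest for Serpina3n and Serpina3m and lowest for Serpina3g. Values of r without these libraries were not computed. Among all other genes tested, Fgb and Fga, which encode fibrinogen chains, were most like Serpina3n (r = 0.99 each), followed by Slc41a2 (r = 0.97). The genes most like Serpina3g were Gm31333, Clec4g and Epsti1 (r = 0.95 each). Clec4g is a marker of liver sinusoidal endothelium and Epsti1 an interferon-induced gene. Unlike Serpina3g, Clec4g was lower in model (24.8 ± 12.7 CPM) than in control (86.0 ± 31.3). Epsti1 was higher, at 13.5 ± 4.22 CPM in model and 3.36 ± 1.00 in control. Gm31333 was low in both groups, at 1.84 ± 1.03 CPM in model and 1.74 ± 0.818 in control. Those most like Serpina3k were Gm45792, the complement gene C8b (r = 0.90 each) and Slc6a14 (r = 0.89), which had no count in any control, so that its r rests on the 8 model libraries. Gm45792 was low in both groups, at 3.00 ± 2.43 CPM in model and 3.89 ± 1.68 in control. The Serpina1 sum was most like Lifr (r = 0.91), Ces3a (r = 0.90) and Selenbp2 (r = 0.89).

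Other serpins of the same clade split in both directions. Of 16 further Serpina genes, 10 had enough counts to be tested, of which 4 rose and 2 fell (26.6% and 21.3% of all genes), and the median log2 fold change was 0.083. Serpina3i and Serpina3h, other Serpina3 genes, rose with log2 fold changes of 4.71 and 4.67, at 6.04 ± 3.45 and 6.13 ± 2.85 CPM in model and 0.214 ± 0.166 and 0.230 ± 0.276 CPM in control. Serpina9, known from germinal centre B cells in humans, fell to 2.28 ± 1.68 CPM in model, against 6.45 ± 1.78 CPM in control (log2 fold change -1.52). Of 18 serpins of other clades, 14 were tested, 9 rose (26.6% of all genes), 5 did not pass the test, and the median was 0.71. Serpinh1, a collagen chaperone, and Serpinb6b had log2 fold changes of 2.09 and 1.77. Serpinc1, which encodes antithrombin, rose by 0.53 on the log2 scale, a call that was lost under 4 of 25 alternatives.

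The proteases that these inhibitors are known to meet, or that are related to such targets, were a list of 20 genes. Of the 14 tested, 6 rose and 2 fell (26.6% and 21.3% of all genes), and the median log2 fold change was 0.40. The 2 that fell, named after their values were seen, were Prtn3 and Klkb1 (log2 fold changes -1.78 and -0.63). Prtn3 was low in both groups, at 0.660 ± 0.487 CPM in model and 2.31 ± 2.50 in control. Gzmb, encoding granzyme B, a target of Serpina3n in mice, was at 15.4 ± 4.26 CPM in model and 0.241 ± 0.206 in control (log2 fold change 5.84), and Gzma at 8.15 ± 2.62 CPM in model and 1.82 ± 1.14 in control (2.19). Mmp9, a matrix protease that can cleave and inactivate alpha-1-antitrypsin, was at 33.3 ± 8.56 CPM in model and 0.338 ± 0.149 in control (6.52). Ctsl, encoding cathepsin L, rose by 0.47 on the log2 scale, a call lost under 8 of 25 alternatives. The neutrophil elastase gene Elane had 13 counts over the model libraries and 23 over the controls, Ctsg had 12 in model and 0 in control, and Klk1 had 70 in model and 7 in control, too few to be tested.

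Acute-phase genes are known to be driven by cytokines of the interleukin-1 and interleukin-6 families through STAT, NF-kB and C/EBP factors. Of 28 such cytokines, receptors and transcription factors, 27 were tested, 19 rose and 2 fell (26.6% and 21.3% of all genes), and the median log2 fold change was 2.02, also with Osm and Lif at their lower bounds against 3 counts over the control group. Il6 was at 15.2 ± 6.20 CPM in model and 0.0909 ± 0.141 in control (log2 fold change 7.58), and Tnf at 33.3 ± 32.0 CPM in model and 0.0839 ± 0.0483 in control (8.53). Osm and Lif, cytokines of the interleukin-6 family, were at 16.8 ± 10.8 and 10.4 ± 6.16 CPM in model and had no count in any control. Stat3 was at 137 ± 82.0 CPM in model and 34.6 ± 19.6 in control (1.98). Cebpa, a factor of the mature hepatocyte that was named after its values were seen, fell to 64.0 ± 30.6 CPM in model, against 171 ± 30.2 in control (-1.41). The C/EBP genes Cebpb and Cebpd rose instead. Cebpb was at 160 ± 91.9 CPM in model and 24.6 ± 7.79 in control (2.70). Cebpd was at 52.8 ± 10.8 CPM in model and 4.85 ± 1.90 in control (3.45).

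Other hepatocyte products that reach the plasma by the same secretory route were listed too. Of 24 such proteins, 23 were tested, 12 rose (26.6% of all genes), 11 did not pass, and the median log2 fold change was 0.73. Saa2, Saa1 and Cp, acute-phase genes, had log2 fold changes of 5.44, 3.64 and 1.64. Alb, encoding albumin, was at 52208 ± 8078 CPM in model and 29394 ± 10077 in control (0.83, a call lost under 2 of 25 alternatives), and Ttr, encoding transthyretin, was at 6153 ± 1431 CPM in model and 6517 ± 1958 in control (-0.083, not called). Of 14 factors that fold, check or carry secreted serpins, all tested, 8 rose (26.6% of all genes), 6 did not pass, and the median was 0.76. Hspa5, Syvn1 and Canx had log2 fold changes of 2.49, 1.65 and 1.16.

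The cell type lists gave the surroundings of these values, to be read against the 26.6% of all genes that rose and the 21.3% that fell. All 7 neutrophil markers and all 7 monocyte and macrophage markers rose, with median log2 fold changes of 7.81 (7.78 with Ly6g at its lower bound) and 2.79. Of the Kupffer cell markers 2 rose and 2 fell of 5, of the endothelial markers 2 rose and 2 fell of 5, of the stellate markers 3 rose and 1 fell of 5, and all 4 cholangiocyte markers rose. Of the 6 hepatocyte markers Alb and Cyp3a11 rose, the call of Cyp3a11 being lost under 16 of 25 alternatives. Of the T and NK cell markers 2 of 3 tested rose, and the 3 tested B cell markers had edgeR adjusted p-values from 0.0939 to 0.798. Their part in the serpin values was not tested.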

How the data were processed

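Poly(A)-selected liver RNA was sequenced from 8 model and 6 control livers, per the labels' protocols. The authors deposited raw read counts per gene for each library. Reads were aligned with HISAT2 to GRCm39, per the submitters' processing notes. Which counter, strand option and annotation version they used is not given in the sources used here. The 5 summary lines of each file, 27.4% to 45.6% of its entries, name no gene and were left out. The members, lists, motifs and sequences shown were chosen with earlier results of these data known, and the lists serve as description only.

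Counts were tested with edgeR 4.0.16 (R 4.3.3): filterByExpr left 12915 genes, TMM factors and a robust quasi-likelihood fit with group as the only term were used, and p was adjusted over all genes tested by Benjamini-Hochberg. Sums of the Serpina1 copies and of the 2 Serpina3 pairs replaced their rows in a second fit. The SE is the log2 fold change over the root of F. CPM values use the TMM factors, and log2 CPM a prior count of 2. Summed levels of marker lists and pooled levels of pseudogenes use library totals without these factors. Ratios within a library added 0.5 to each count and were tested by exact two-sided permutation of the libraries. Alternatives included DESeq2 1.42.0, limma-voom (limma 3.58.1), other scaling factors, no filter, each library left out, a replicate block and an offset for length and GC content. On simulated counts, edgeR's test recovered 6% of 1.5-fold, 30.4% of 2-fold and 100% of 4-fold changes, with 6 false calls in 12764 genes. The changed genes were drawn from all genes tested. A gene that did not pass may therefore still have changed by a small amount. No label says that libraries are separate animals, so p-values cover the spread among these libraries, which may be technical. Over 43 pairs of libraries within a group none agreed within sampling noise (smallest chi-square per degree of freedom 23.3).

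Transcript sequence, length and overlaps came from GENCODE for GRCm38, another build than that of the files, matched by identifier, and alignments were made with MAFFT 7.526. Unique stretches are those found in no transcript of another gene. From each list other than the cell type lists, up to 3 called genes with the largest change and a group mean of 5 CPM or more were named, and 11 genes were taken by name. Some genes that this rule or a list holds are not reported here.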

Additional observations from a re-analysis of the deposited data

Results flagged for a closer look

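Of the 50 groups of values examined for a library far from the others, where chance alone gives about 1 in 20, control 4 stood apart for the Serpina1 sum. It was at 12345 CPM, and the other 5 controls lay between 15858 and 17206 CPM. Serpina3d-ps, a pseudogene outside the 10 members, held 98 counts in 6 of the 8 model libraries, a pooled level of 0.920 CPM, and no count in control. Against 3 counts over the control group (0.0452 CPM) it was at least 20.4-fold higher in model. Serpina3l-ps, a pseudogene that overlaps Serpina3m, held 14 counts in 6 model libraries, a pooled level of 0.131 CPM, and none in control, at least 2.91-fold higher in model against the same floor. These bounds cover counting error only.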

How the results depend on the processing

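Of the 10 members, 5 to 9 were called under the 25 alternatives, all higher. The 5 Serpina3 genes passed the test and kept their direction under each of them, with log2 fold changes of 5.55 to 5.86 (Serpina3f), 3.06 to 3.67 (Serpina3g), 0.52 to 0.91 (Serpina3k), 0.75 to 1.78 (Serpina3m) and 1.47 to 3.15 (Serpina3n). Serpina1b did not pass with upper-quartile factors (0.40), library totals (0.28), the length and GC offset (0.35) or that offset with the replicate block (0.39), and Serpina1d not with the last (0.62). Serpina1e was at -0.027 with library totals and at -0.074 with the block and offset. Without model 7 and model 8, Serpina1a (0.43), Serpina1c (0.57) and the Serpina1 sum (0.48) passed, and the sum also with DESeq2 (0.36). With 1 library left out at a time, Serpina1c ran from 0.33 to 0.53, the log2 ratio of Serpina3n to Serpina3k from 1.30 to 1.94 (2.14 without model 3 and model 4, 0.91 without model 7 and model 8), and Ttr from -0.20 to 0.0043. Ttr was at 0.077 without model 7 and model 8 and at 0.12 with the block. Apart from these settings' own construction, the cause was not tested.

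In all 3437 genes were called higher and 2753 lower (55.5% higher). The share called higher was 46.0% with upper-quartile factors, 39.0% with library totals, 40.3% with the offset (4394 lower) and 39.3% with block and offset (4181 lower). The median of all genes moved to -0.14, -0.23, -0.22 and -0.23 in these settings and to 0.29 without the low-count filter, and the changes given are relative to TMM scaling. Libraries 1 to 6 of both groups share numbers, but their deviations correlated from -0.34 to 0.36. These values show no steady pairing by number and cannot exclude one. With the replicate block on those 12 libraries, 8 members and 5321 genes were called, against 9 and 6024 on the same libraries without it and 7 and 6190 in all 14. Serpina1c passed with the block (0.59) and without it on these libraries, and Serpina1a only without it. The log2 ratio of Serpina3g to Serpina3f was -2.15 with an adjusted p of 0.0938 by an exact sign-flip test. The smallest p of that test is 0.0313, which passes after adjustment over 3 comparisons only if another of them is as small. That was not the case here. Depth left the listed genes with few counts untested.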
